A study of Mus musculus with 110 samples.

Results

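Leptin, adiponectin, resistin and retinol binding protein 4 are proteins that fat and liver release into the blood. The genes described here are Lep, Adipoq, Retn and Rbp4 together with the leptin receptor gene Lepr and the adiponectin receptor genes Adipor1 and Adipor2. They were chosen by symbol, and each of the 7 was found as 1 row among the 56884 gene rows of the deposited count tables. RNA-seq was run on liver, interscapular brown adipose tissue (iBAT), inguinal white adipose tissue (iWAT) and epididymal white adipose tissue (eWAT) of 28 male C57BL/6N mice that were 16 weeks old. All mice ate a cysteine-free diet at 22 °C for 7 days, with 0.86% methionine (Ctrl) or with 0.12% methionine (MetR). The RT mice were taken then, and the CE mice after a further 24 h at 4 °C, so cold cannot be told apart from the added day. The 4 groups are named Ctrl_RT, Ctrl_CE, MetR_RT and MetR_CE. They held 7 mice each, except for 6 libraries in iBAT Ctrl_RT, iBAT Ctrl_CE, iWAT MetR_CE and eWAT MetR_RT and 4 in eWAT Ctrl_RT. No genotype or drug was involved. Both diets lack cysteine, and the stated difference between them is the level of methionine.

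Leptin is made by adipocytes in keeping with how much fat they store, and it acts through the long form of its receptor, which signals by JAK2 and STAT3, to restrain feeding and support energy expenditure. Adiponectin is also made by adipocytes, is secreted as multimers, and acts through the receptors AdipoR1 and AdipoR2, which raise AMPK activity and PPARalpha target genes in muscle and liver. Resistin, in mice an adipocyte product, opposes insulin action, and RBP4 carries retinol from the liver through the blood and is released by fat as well.

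Counts were turned into CPM, a gene's counts scaled to a common library size with TMM factors within each tissue, and groups were compared with the edgeR quasi-likelihood test, adjusted by the Benjamini-Hochberg method over all genes of the tissue. A difference passed where the adjusted p was below 0.05. Included libraries held 6987895 to 33444374 counts in liver, 12672686 to 31232349 in iBAT, 16607493 to 33141066 in iWAT and 22625093 to 33372110 in eWAT. The 5 libraries that the study set aside as outliers, 1 in iBAT and 4 in eWAT, were not part of these values. The labels' treatment tag of 3 iBAT libraries names another group than the title, and the title was used. Log2 differences are relative to TMM, and leaving TMM out adds the same amount to every gene of a comparison. In iWAT this amount was -0.24 for Ctrl_CE, -0.18 for MetR_RT and -0.22 for MetR_CE against Ctrl_RT, in liver it was 0.06, 0.11 and 0.15, and in iBAT and eWAT it ran from -0.10 to 0.02. Between tissues in Ctrl_RT it was larger, at 0.34 for iBAT, 0.79 for iWAT and 0.74 for eWAT against liver. Against iBAT it was 0.50 for iWAT and 0.54 for eWAT, and between eWAT and iWAT it was 0.01. In tissue from many cell types, fewer cells of a type and less RNA per cell cannot be told apart. The tissues' own markers were present, with summed hepatocyte markers of 46529 to 93181 CPM in liver, and Ucp1 and Zic1 at 0 in every liver library.

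Gene positions are given on the GRCm38 build. Lep lies on chromosome 6 at 29060220 to 29073877 on the plus strand and Lepr on chromosome 4 at 101717404 to 101815352, also on the plus strand. Adipoq lies on chromosome 16 at 23146536 to 23158028 and Retn on chromosome 8 at 3655770 to 3660110, both on the plus strand. Adipor1 lies on chromosome 1 at 134415378 to 134433351 on the plus strand, Adipor2 on chromosome 6 at 119353150 to 119417704 on the minus strand, and Rbp4 on chromosome 19 at 38116629 to 38125281 on the minus strand. The counts are per gene, so the long signalling form of Lepr was not separated from the short forms.

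The 3 adipokine genes moved differently from each other in the fat depots, and the receptor gene Lepr moved in liver, so the 250 bases before the RefSeq start of these 4 genes are shown from GRCm38.p6. Capitals mark matches, on either strand, to 8 short motifs, which were the palindromic C/EBP site TTGCGCAA, the C/EBP-ATF element TGATGNAA, TATAAA, the Sp1 site GGGCGG, the cAMP response element TGACGTCA, the E-box CACGTG, the FOXO site GTAAACA and the STAT site TTCNNNGAA.
Lep, chr6:29059971-29060220, plus strand: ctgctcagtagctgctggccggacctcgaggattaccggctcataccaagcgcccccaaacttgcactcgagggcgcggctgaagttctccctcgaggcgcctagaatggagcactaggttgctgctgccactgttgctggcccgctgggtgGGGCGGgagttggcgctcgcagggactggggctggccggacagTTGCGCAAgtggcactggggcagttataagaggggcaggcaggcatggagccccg
Adipoq, chr16:23146286-23146535, plus strand: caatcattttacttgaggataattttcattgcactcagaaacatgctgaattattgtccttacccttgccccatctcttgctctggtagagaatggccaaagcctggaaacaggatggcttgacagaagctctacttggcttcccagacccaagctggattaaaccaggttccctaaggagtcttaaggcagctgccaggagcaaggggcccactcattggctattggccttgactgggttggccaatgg
Retn, chr8:3655520-3655769, plus strand: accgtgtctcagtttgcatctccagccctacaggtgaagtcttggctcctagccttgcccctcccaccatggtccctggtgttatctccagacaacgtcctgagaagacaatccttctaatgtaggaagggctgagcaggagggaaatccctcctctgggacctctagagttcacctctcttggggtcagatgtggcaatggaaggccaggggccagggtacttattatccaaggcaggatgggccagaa
Lepr, chr4:101717157-101717406, plus strand: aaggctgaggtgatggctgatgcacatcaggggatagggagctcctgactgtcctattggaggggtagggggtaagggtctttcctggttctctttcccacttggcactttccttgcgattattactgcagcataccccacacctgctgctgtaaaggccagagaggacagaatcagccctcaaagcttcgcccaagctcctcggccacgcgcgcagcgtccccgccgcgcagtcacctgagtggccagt
Lep carried the C/EBP site at -55 to -48 from the start, a motif in 0.164% of the 32851 promoter windows in the table, and an Sp1 site at -98 to -93, a motif in 32.7% of them. The windows of Adipoq and Retn and this first window of Lepr held none of the 8 motifs. Among the matches of the other genes, Adipor2 held a FOXO site at -172 to -166 and Rbp4 held one at -241 to -235 of 1 of its windows, a motif in 3.17% of all windows. The same Rbp4 window held the C/EBP-ATF element at -76 to -69, a motif in 3.45% of windows. Another Rbp4 window held TATAAA at -28 to -23, a motif in 12.4% of windows. These are matches of letters, and binding was not measured.

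Each gene had its own distribution over the tissues of Ctrl_RT mice. Divided by the merged exon length in kb, so that genes can be set beside each other, eWAT held Adipoq at 2402 CPM per kb, Retn at 707, Rbp4 at 285.9, Adipor2 at 205, Lep at 191, Adipor1 at 41.5 and Lepr at 0.64. In liver the order was different, with Rbp4 at 2169 CPM per kb, Adipor2 at 105, Adipor1 at 22.2 and Lepr at 0.452. Lep, Adipoq and Retn were close to absent from liver, with 0, 7 and 1 counts summed over the 7 Ctrl_RT libraries. Summed over Ctrl_CE, MetR_RT and MetR_CE liver libraries, Lep had 1, 3 and 0 counts, Adipoq 2, 25 and 10, and Retn 0, 14 and 6. Of these, 1 MetR_RT library, replicate 2, held 21 of the 25 Adipoq counts and 10 of the 14 Retn counts, and no fold change is given for the 3 genes in liver.

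**Figure D1:**
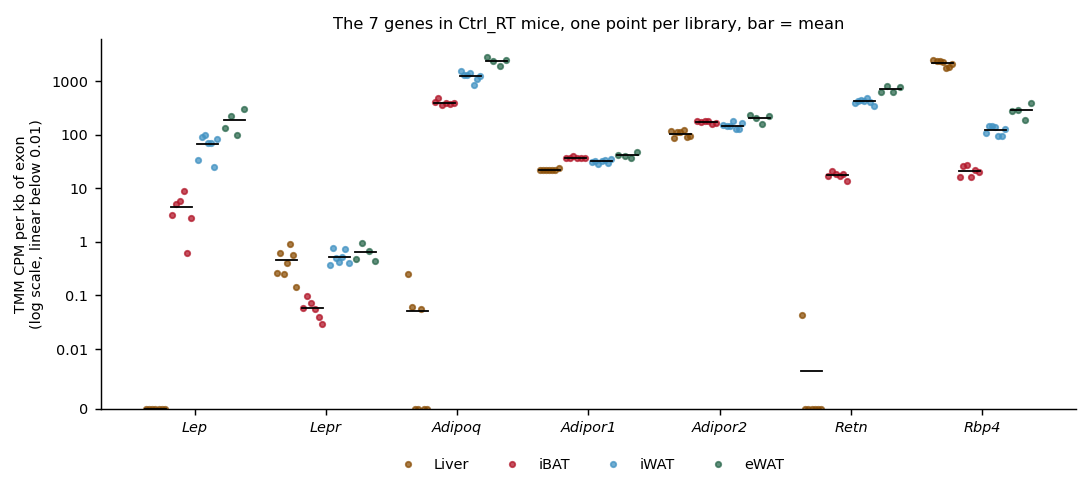
Level of the 7 genes in the Ctrl_RT libraries of the 4 tissues, in CPM per kb of merged exons on a log axis that is linear below 0.01, with 1 point per library. Adipoq reaches 2402 CPM per kb on average in eWAT, Rbp4 2169 in liver, and Lepr stays below 1 in the mean of every tissue.

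The adipokine genes rose from brown to inguinal to epididymal fat. Tissues were compared in pairs with the mouse as a block and TMM over both tissues, and the level of Lep in Ctrl_RT mice was 3.72 higher on the log2 scale in iWAT than in iBAT (SE 0.315, adjusted p = 2.57e-11) and 1.60 higher in eWAT than in iWAT (SE 0.174, adjusted p = 4.57e-07). Adipoq was 1.34 higher in iWAT than in iBAT (adjusted p = 9.62e-13) and 0.72 higher in eWAT than in iWAT (adjusted p = 2.43e-04). Retn was 4.18 higher in iWAT than in iBAT (adjusted p = 1.66e-16) and 0.66 higher in eWAT than in iWAT (adjusted p = 0.00938). Between eWAT and iBAT the gaps were 5.54 for Lep, 2.08 for Adipoq and 4.83 for Retn. Of all genes, 49.6% differed between iWAT and iBAT, 43.9% between eWAT and iBAT and 17.9% between eWAT and iWAT. With the left-out libraries included, the eWAT to iWAT difference was 0.36 for Adipoq (adjusted p = 0.121) and 0.36 for Retn (adjusted p = 0.144), so the top place of eWAT for these 2 genes rests on the choice of libraries.

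Rbp4 was highest in liver, with eWAT lower by 3.61 on the log2 scale (a 12.2-fold difference), iWAT by 4.70 (26-fold) and iBAT by 6.95 (123-fold), and adjusted p-values from 1.22e-13 to 2.54e-28. These sizes are under TMM. Without TMM factors the gaps were smaller and the order was the same, with Rbp4 means of 2758 CPM in liver, 386 in eWAT, 185 in iWAT and 29.7 in iBAT. Among fat depots it was 1.06 higher in eWAT than in iWAT (adjusted p = 3.89e-04) and 2.22 higher in iWAT than in iBAT (adjusted p = 1.91e-14). The share of all genes that differed from liver was 50.4% for eWAT, 58.4% for iWAT and 59.4% for iBAT. Under TMM, Lepr did not separate liver from white fat, with a difference of 0.46 between eWAT and liver (SE 0.444, adjusted p = 0.417), -0.22 between iWAT and liver (SE 0.359, adjusted p = 0.63) and 0.16 between eWAT and iWAT (SE 0.242, adjusted p = 0.743). Leaving TMM out adds 0.74 to the first and 0.79 to the second of these differences, and Lepr was not tested that way. In iBAT, Lepr was near its limit of detection, at 0.0587 CPM per kb.

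The adiponectin receptor genes were spread far more evenly. Under TMM, Adipor1 in iBAT was 0.53 above liver (adjusted p = 9.52e-11), 0.43 above eWAT (adjusted p = 5.41e-05) and 0.62 above iWAT (adjusted p = 2.20e-09), and Adipor2 in iBAT was 0.56 above liver, 0.33 above eWAT and 0.58 above iWAT (largest adjusted p = 0.00855). The order of iBAT and eWAT depends on scaling. Without TMM factors Adipor1 was higher in eWAT by 0.11 and Adipor2 by 0.22, and Adipor2 then had a mean of 594 CPM in liver against 1081 in iBAT, with 992.3 in iWAT and 1243 in eWAT. Adipor1 exceeded liver by 0.25 in eWAT (adjusted p = 0.0106), and Adipor2 did by 0.36 (adjusted p = 0.0302). With all libraries these were 0.12 (adjusted p = 0.184) and 0.00 (adjusted p = 0.987), and neither passed. Between iWAT and liver the differences were -0.03 and -0.05, and without TMM factors 0.76 and 0.74, so neither receptor can be placed between these 2 tissues. In every tissue Adipor2 had the larger CPM per kb of the 2 receptors, from 105 against 22.2 in liver to 205 against 41.5 in eWAT.

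Liver gave the largest change of any of the 7 genes. Lepr, which encodes the receptor that receives leptin, rose with cold, with methionine restriction, and most with both. In Ctrl_RT livers Lepr was at 1.03, 2.8 and 6.37 CPM (lowest, median and highest of 7), and in Ctrl_CE livers at 5.15, 8.68 and 58.1. In MetR_RT livers it was at 7.48, 13.2 and 25.6 CPM, and in MetR_CE livers at 26.6, 56.6 and 74.4. All MetR_RT and all MetR_CE livers lay above the highest Ctrl_RT liver, and all MetR_CE livers above the highest MetR_RT liver, while 2 Ctrl_CE livers, replicates 2 and 4 at 34.4 and 58.1 CPM, stood within the MetR_CE range and the lowest lay within the Ctrl_RT range. The difference from Ctrl_RT was 2.59 on the log2 scale for Ctrl_CE (SE 0.496, 6.04-fold, adjusted p = 1.74e-04), 2.31 for MetR_RT (4.97-fold, adjusted p = 0.00108) and 4.13 for MetR_CE (17.5-fold, adjusted p = 1.39e-07). MetR_CE also exceeded MetR_RT by 1.81 (3.52-fold, adjusted p = 0.00229) and Ctrl_CE by 1.53 (2.9-fold, adjusted p = 0.0126). With each library left out in turn the Ctrl_CE value ran from 2.06 to 2.86 and the MetR_CE value from 3.97 to 4.40, and all of them passed. The cold effect did not differ detectably between diets, with an interaction of -0.78 (95% interval -2.04 to 0.49, adjusted p = 0.603). Summed endothelial markers, of a cell type that liver also holds, were at 60.7 to 80.1 CPM in Ctrl_RT, 106 to 183 in Ctrl_CE, 82.3 to 104 in MetR_RT and 145 to 166 in MetR_CE livers, with none of the 5 markers at 0 in all libraries of a group. Summed hepatocyte markers were at a median of 72885, 69159, 66007 and 51266 CPM. The part of either in the Lepr result was not tested.

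**Figure D2:**
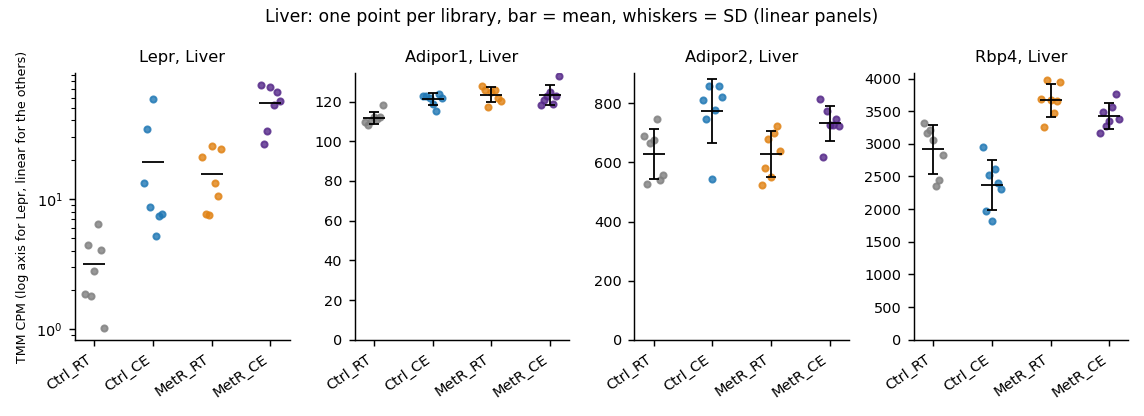
CPM of Lepr (log axis), Adipor1, Adipor2 and Rbp4 in the 28 liver libraries by group, with points for libraries, a bar for the mean and, except for Lepr, whiskers of 1 SD. Lepr runs from 1.03 to 6.37 CPM in Ctrl_RT and from 26.6 to 74.4 in MetR_CE, whereas Adipor1 lies between 108 and 133 CPM in all 4 groups.

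Both adiponectin receptor genes changed little in liver. Adipor1 was at 108, 111 and 118 CPM (lowest, median and highest) in Ctrl_RT, 115, 122 and 124 in Ctrl_CE, 117, 125 and 128 in MetR_RT and at 118, 123 and 133 in MetR_CE. It rose by 0.12 in Ctrl_CE (adjusted p = 0.028), 0.14 in MetR_RT (adjusted p = 0.0113) and 0.14 in MetR_CE (adjusted p = 0.00698), and in MetR_CE no library overlapped Ctrl_RT. The Ctrl_CE call was lost without the filter on low counts (adjusted p = 0.0801) and with only its 2 groups in the fit (adjusted p = 0.0603). Adipor2 was at 526, 665 and 746 CPM in Ctrl_RT, 543, 813 and 858 in Ctrl_CE, 522, 639 and 722 in MetR_RT and at 619, 728 and 814 in MetR_CE. It rose by 0.30 in Ctrl_CE (adjusted p = 0.0176), where 1 library stood below the others at 543 CPM. It differed by 0.22 in MetR_CE (adjusted p = 0.0824) and by -0.00 in MetR_RT (adjusted p = 0.996, 95% interval -0.19 to 0.19). Its value in MetR_CE passed without Ctrl_RT replicate 5, Ctrl_CE replicate 4 or MetR_CE replicate 2 (0.19 to 0.27 over all libraries left out in turn).

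Rbp4, the carrier that liver loads with retinol, fell with cold on the control diet and rose with methionine restriction. Liver Rbp4 was at 2361, 3052 and 3316 CPM in Ctrl_RT and 1814, 2398 and 2951 in Ctrl_CE. On the restricted diet it was at 3250, 3667 and 3973 CPM in MetR_RT and at 3171, 3381 and 3763 in MetR_CE. Every MetR_CE liver lay above every Ctrl_CE liver. The differences were -0.30 for Ctrl_CE against Ctrl_RT (adjusted p = 0.0137, or 0.0718 with only these 2 groups in the fit), 0.33 for MetR_RT against Ctrl_RT (adjusted p = 0.00967) and 0.53 for MetR_CE against Ctrl_CE (adjusted p = 1.91e-04). MetR_CE against Ctrl_RT missed the threshold at 0.23 (adjusted p = 0.0507) and passed when any of 8 of the 28 libraries was left out (Ctrl_RT replicates 1, 2 and 3, MetR_RT replicate 3, Ctrl_CE replicates 1, 2 and 4, MetR_CE replicate 1), with values from 0.19 to 0.27. Counted together, 4 of the 6 members tested in liver passed in Ctrl_CE against Ctrl_RT, beside 28.8% of all genes, 3 of 6 in MetR_RT beside 18.8%, and 2 of 6 in MetR_CE beside 30.3%. MetR_CE differed from MetR_RT in 1 of 6, Lepr, beside 18% of all genes, and from Ctrl_CE in 2 of 6, Lepr and Rbp4, beside 12.1%.

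Genes of the leptin pathway were listed by their textbook roles. Of 14 tested in liver, 3 rose and 1 fell in Ctrl_CE, where 28.8% of all genes passed, 1 rose and 5 fell in MetR_RT (18.8% of all genes), and 2 rose and 3 fell in MetR_CE (30.3%). The list's medians of 0.08, -0.00 and -0.07 stood beside -0.011, 0.005 and -0.044 over all genes. Socs3, the feedback inhibitor of the leptin receptor and of other cytokine receptors, was among those that fell, by 1.24 in MetR_RT (adjusted p = 0.0376) and 1.70 in MetR_CE (adjusted p = 0.00308), from 26.5 ± 13.3 CPM (SD, n = 7) in Ctrl_RT to 11.2 ± 4.66 and 8.09 ± 3.58. Of 10 tested genes for adiponectin assembly and signalling, 4 rose and 3 fell in Ctrl_CE, 2 rose and 1 fell in MetR_RT and 5 rose and 4 fell in MetR_CE. Ppara, the fatty acid receptor that adiponectin signalling acts on in liver, rose by 1.33 in Ctrl_CE and by 1.53 in MetR_CE, from a mean of 54.6 CPM to 137 and 157. Of 15 retinol transport and metabolism genes, 4 rose and 2 fell in Ctrl_CE, 1 rose and 4 fell in MetR_RT, and 6 rose and 3 fell in MetR_CE. Lrat, the enzyme that stores retinol as an ester, rose by 1.11 in Ctrl_CE and by 1.14 in MetR_CE, and Rarb, a retinoic acid receptor gene, rose by 1.37 and 1.19. Cyp26b1, which degrades retinoic acid, rose by 2.83 in MetR_CE. Of other secreted adipokines, Lcn2, a lipocalin of the acute phase, fell by 4.51 in MetR_RT and 6.80 in MetR_CE.

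In iBAT, Adipoq fell with cold on both diets. It was at 498, 537 and 659 CPM (lowest, median and highest of 6) in Ctrl_RT, 267.8, 303 and 409 in Ctrl_CE, 431, 462 and 548 in MetR_RT and at 339, 361 and 389.9 in MetR_CE. No Ctrl_CE or MetR_CE library reached the lowest Ctrl_RT library, and no MetR_CE library reached the lowest MetR_RT library. The difference from Ctrl_RT was -0.78 in Ctrl_CE (adjusted p = 7.64e-09) and -0.59 in MetR_CE (adjusted p = 5.33e-07), and MetR_CE against MetR_RT gave -0.38 (adjusted p = 2.65e-04), or -0.28 with groups by treatment tag (adjusted p = 0.0521), which did not pass. MetR_RT against Ctrl_RT gave -0.21 (adjusted p = 0.0957). The cold effect was smaller on the restricted diet by 0.40, which missed the threshold over all genes (adjusted p = 0.0719) and passed without MetR_RT replicate 1 or Ctrl_CE replicate 4 (0.34 to 0.49 over all libraries left out in turn). This interaction was 0.38 in DESeq2 (adjusted p = 0.0267) and 0.42 in edgeR with all libraries (adjusted p = 0.0459), which both passed. Summed adipocyte markers had medians of 17467, 18393, 15540 and 18061 CPM in Ctrl_RT, Ctrl_CE, MetR_RT and MetR_CE, and brown adipocyte markers 9395, 14930, 10421 and 16436. Of the 8 adipocyte markers, 3 rose and 3 fell in Ctrl_CE and 2 rose and 2 fell in MetR_CE, and their part in the Adipoq result was not tested.

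Lep in iBAT was low, and it fell when both stimuli were combined. It was at 2.12, 13.9 and 30.5 CPM in Ctrl_RT, 4.57, 6.28 and 16 in Ctrl_CE, 3.89, 8.98 and 15.7 in MetR_RT and at 2.83, 4.19 and 5.39 in MetR_CE. The Ctrl_RT libraries were the most scattered, and the lowest of them lay below all libraries of the other groups. MetR_CE was lower than Ctrl_RT by 1.83 on the log2 scale (adjusted p = 3.88e-04) and lower than MetR_RT by 1.25 (adjusted p = 0.0142). Ctrl_CE differed by -0.98 (adjusted p = 0.0501), from -1.34 to -0.63 when libraries were left out in turn, and it passed without Ctrl_RT replicate 1, 5 or 6, MetR_RT replicate 1 or 4, or Ctrl_CE replicate 3. With the left-out Ctrl_CE library included it was -0.99 (adjusted p = 0.0326). Summed stromal markers in iBAT had medians of 195, 104, 81.1 and 50.4 CPM in Ctrl_RT, Ctrl_CE, MetR_RT and MetR_CE, macrophage markers 68.3, 60.4, 43.6 and 30.8, and hepatocyte markers 57.1, 7.61, 7.25 and 7.93. In the cold groups the hepatocyte sum was mostly Cyp2e1, with means of 13 CPM in Ctrl_CE and 11.3 in MetR_CE. Alb was at 0.453 and 0.419 CPM there, and the presence of liver cells in iBAT was not tested. The part of these markers in the iBAT results was not tested.

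Retn in iBAT, the resistin gene, fell with methionine restriction at room temperature. It was at 21.4, 27.7 and 32.9 CPM in Ctrl_RT, 14.6, 19.2 and 44.8 in Ctrl_CE, 6.21, 12.5 and 15.7 in MetR_RT and at 8.39, 16.3 and 28.6 in MetR_CE. All MetR_RT libraries lay below all Ctrl_RT libraries, whereas the cold groups overlapped both. MetR_RT was lower by 1.20 (adjusted p = 0.00467). With the 3 libraries grouped by their treatment tag in place of the title this was -0.89 (adjusted p = 0.0511) and did not pass. MetR_CE differed from Ctrl_RT by -0.62 (adjusted p = 0.0676) and Ctrl_CE by -0.13 (adjusted p = 0.765). The MetR_CE value passed without Ctrl_CE replicate 4 or MetR_CE replicate 1 or 2 (-0.77 to -0.49 over all libraries).

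Rbp4 in iBAT was at 21.4, 28.7 and 36.7 CPM in Ctrl_RT, 18, 41.8 and 61.7 in Ctrl_CE, 21.2, 46 and 58.7 in MetR_RT and at 24, 35.3 and 40.7 in MetR_CE. Every group overlapped Ctrl_RT, and Ctrl_CE rose by 0.60 (adjusted p = 0.035), a call lost without Ctrl_RT replicate 1, 4 or 6 or Ctrl_CE replicate 3 or 6 (0.47 to 0.76). With groups by treatment tag this rise was 0.37 (adjusted p = 0.256). Without the 3 libraries with another tag it was 0.62 (adjusted p = 0.0519), and neither passed. Adipor2 in iBAT, from 956, 1043 and 1098 CPM in Ctrl_RT to 895, 954 and 1007 in Ctrl_CE, fell by 0.12 (adjusted p = 0.0482), and the call was lost without any 1 of 17 of the 26 libraries (-0.14 to -0.10). Adipor1, from 184, 186 and 198 CPM in Ctrl_RT to 195, 202 and 215 in MetR_CE, rose by 0.11 in MetR_CE (adjusted p = 0.0198) and by 0.02 without TMM factors. With groups by treatment tag the Adipor1 rise was 0.09 (adjusted p = 0.0881) and did not pass. Lepr lay between 0.0894 and 0.858 CPM in all iBAT libraries and did not pass in any comparison. In all, 3 of 7 members passed in Ctrl_CE against Ctrl_RT beside 33.2% of all genes, 1 of 7 in MetR_RT beside 6.8%, 3 of 7 in MetR_CE beside 33.4%, and 2 of 7 in MetR_CE against MetR_RT beside 25.5%. MetR_CE against Ctrl_CE gave 0 of 7 in edgeR beside 4.78% of all genes, with 2 at an unadjusted p under 0.05 and 0 in DESeq2.

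Inguinal fat moved Lep the other way. Lep in iWAT was at 83.1, 239 and 328 CPM (lowest, median and highest) in Ctrl_RT, 150.1, 405 and 726 in Ctrl_CE and 135, 305 and 557 in MetR_RT. In MetR_CE the median was 678 and the highest 833 CPM, and the lowest library lay below the highest of Ctrl_RT. All groups overlapped Ctrl_RT, and MetR_CE had the highest median. Ctrl_CE rose by 0.89 on the log2 scale (1.85-fold, adjusted p = 0.0331) and MetR_CE by 1.47 (2.78-fold, adjusted p = 7.59e-04). MetR_RT differed by 0.49 (adjusted p = 0.293), and MetR_CE differed from MetR_RT by 0.98 (adjusted p = 0.0736). The Ctrl_CE call was lost without Ctrl_RT replicate 1 or 6 or Ctrl_CE replicate 1, 3 or 5 (0.71 to 1.05), and the MetR_CE difference from MetR_RT passed without MetR_RT replicate 7, Ctrl_CE replicate 4 or MetR_CE replicate 1 (0.86 to 1.17).

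**Figure D3:**
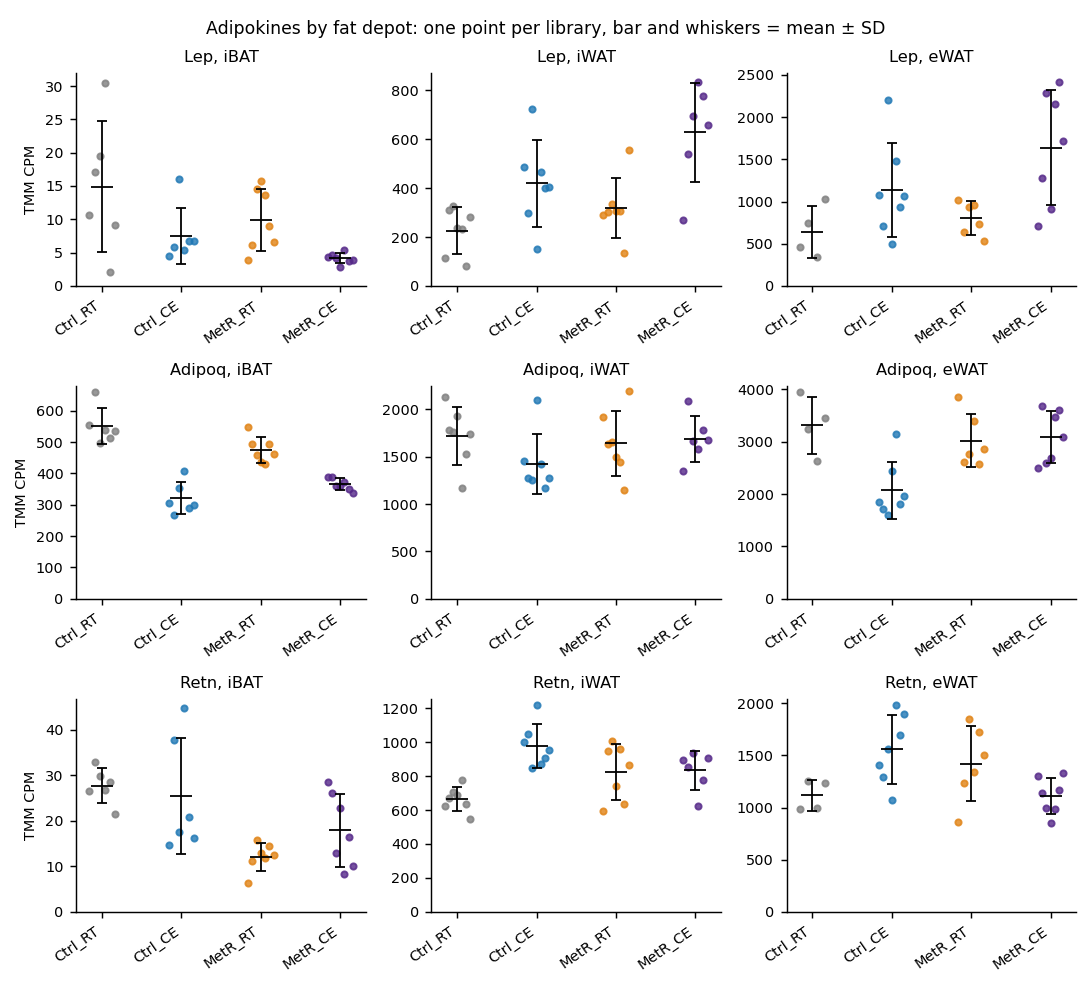
CPM of Lep, Adipoq and Retn in iBAT, iWAT and eWAT by group, with points for libraries and the mean ± SD. In iBAT Adipoq lies at 498 to 659 CPM in Ctrl_RT and at 267.8 to 409 in Ctrl_CE, and in iWAT Lep lies at 83.1 to 328 CPM in Ctrl_RT and up to 833 in MetR_CE.

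Retn rose in iWAT with cold on the control diet. It was at 549, 669 and 778 CPM in Ctrl_RT, 846, 954 and 1222 in Ctrl_CE, 592, 866 and 1006 in MetR_RT and at 625, 878 and 938 in MetR_CE. All Ctrl_CE libraries lay above all Ctrl_RT libraries. The rise from Ctrl_RT was 0.56 in Ctrl_CE (adjusted p = 7.01e-04) and 0.33 in MetR_CE (adjusted p = 0.036), and MetR_RT differed by 0.31 (adjusted p = 0.0613). Leaving TMM out adds -0.24, -0.22 and -0.18 to these differences, so their size depended on scaling. Retn means without TMM factors were 740.3, 925, 809.7 and 798 CPM in Ctrl_RT, Ctrl_CE, MetR_RT and MetR_CE. On the restricted diet cold gave a difference of 0.02 between MetR_CE and MetR_RT (95% interval -0.22 to 0.26, adjusted p = 0.955). The interaction of Retn was -0.54 (adjusted p = 0.0771) and missed the threshold, or -0.57 in DESeq2 (adjusted p = 0.0143). The MetR_CE call was lost without Ctrl_RT replicate 1, 6 or 7 or MetR_CE replicate 1, 3 or 6 (0.29 to 0.40), and the MetR_RT value passed without Ctrl_RT replicate 5, MetR_RT replicate 1 or 6, Ctrl_CE replicate 4 or MetR_CE replicate 4 (0.26 to 0.37). Adipoq did not pass in any iWAT comparison, and lay at 1172, 1764 and 2132 CPM in Ctrl_RT, 1169, 1280 and 2097 in Ctrl_CE, 1147, 1637 and 2192 in MetR_RT and at 1355, 1669 and 2088 in MetR_CE. The Ctrl_CE difference of Adipoq was -0.27 (95% interval -0.56 to 0.01, adjusted p = 0.156), and without Ctrl_CE replicate 4, the library at 2097 CPM, it passed (-0.38 to -0.22 over all libraries). Without TMM factors the Adipoq means were 1934 CPM in Ctrl_RT and 1344 in Ctrl_CE, a larger fall that was not tested.

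The receptor genes in iWAT changed by small amounts that depended on scaling. Adipor1 was at 144, 159 and 177 CPM in Ctrl_RT, 158, 189 and 194 in Ctrl_CE, 179, 201 and 223 in MetR_RT and at 180.2, 196 and 202 in MetR_CE, and no MetR_RT or MetR_CE library overlapped Ctrl_RT. It rose by 0.19 in Ctrl_CE (adjusted p = 0.0158), 0.30 in MetR_RT (adjusted p = 7.06e-04) and 0.27 in MetR_CE (adjusted p = 9.53e-04). Without TMM factors these were -0.05, 0.12 and 0.06, so the cold value changed sign. Adipor2 was at 754, 856 and 1092 CPM in Ctrl_RT and 1062, 1175 and 1298.3 in MetR_CE, and it rose by 0.40 in MetR_CE (adjusted p = 0.00717), or 0.18 without TMM factors. Lepr was at 2.64, 3.49 and 5.32 CPM in Ctrl_RT and 1.83, 2.67 and 2.81 in MetR_CE. It fell by 0.60 in MetR_CE (adjusted p = 0.0306), which was lost without Ctrl_RT replicate 2 or 6 or MetR_CE replicate 1 or 6 (-0.67 to -0.49). Rbp4 did not pass, from 128, 174 and 197 CPM in Ctrl_RT to 128, 157 and 183 in MetR_CE.

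Of the 7 members, 3 passed in iWAT Ctrl_CE against Ctrl_RT beside 30.8% of all genes, 1 in MetR_RT beside 22.4%, and 5 in MetR_CE beside 37%. In edgeR 0 passed between MetR_CE and MetR_RT, beside 5.41% of all genes, with 1, Lep, at an unadjusted p under 0.05 and 1 in DESeq2. Between MetR_CE and Ctrl_CE 0 passed, beside 3.37%, with 0 at an unadjusted p under 0.05 and 0 in DESeq2. Summed markers of other cell types differed between these groups in iWAT. Summed stromal markers had medians of 5600, 1512, 898 and 505 CPM in Ctrl_RT, Ctrl_CE, MetR_RT and MetR_CE, macrophage markers 1354, 571, 393 and 230.1, brown adipocyte markers 304, 3229, 1773 and 4794, and adipocyte markers 28823, 31569, 29993 and 34569. The stromal sum was mostly Col1a1, with means of 5374, 1359, 975 and 300.4 CPM in Ctrl_RT, Ctrl_CE, MetR_RT and MetR_CE. Means of the stromal genes Pdgfra, Pi16 and Lum fell as well, by smaller factors. The stromal sum thus mainly follows Col1a1, and whether the number of stromal cells changed was not tested. Skeletal muscle markers had medians of 135, 167, 662 and 878 CPM in the same order of groups. They were very scattered, from 2.08 to 4753 CPM in Ctrl_RT and from 83 to 18441 in MetR_RT. The part of these marker sets in the iWAT results was not tested.

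In iWAT the lists are set beside 30.8% of all genes that passed in Ctrl_CE, 22.4% in MetR_RT and 37% in MetR_CE. Of the 14 leptin pathway genes, 4 rose and 6 fell in Ctrl_CE, 2 rose and 6 fell in MetR_RT and 5 rose and 7 fell in MetR_CE, with medians of -0.05, -0.08 and -0.12 beside -0.112, -0.031 and -0.077 over all genes. Socs3 fell by 1.26 in MetR_RT and 2.14 in MetR_CE and passed in Ctrl_CE too (adjusted p = 1.38e-04), from a mean of 23.3 CPM in Ctrl_RT to 8.21, 9.68 and 5.28. Of 10 adiponectin assembly and signalling genes, 4 rose and 3 fell in Ctrl_CE, 3 rose and 2 fell in MetR_RT and 5 rose and 4 fell in MetR_CE, and Ppara rose by 1.37, 1.64 and 1.85. Of 10 adipocyte transcription factors, 6 rose and 1 fell in Ctrl_CE, 4 rose and 1 fell in MetR_RT and 4 rose and 2 fell in MetR_CE. Of the 8 measured C1q/TNF proteins, the relatives of adiponectin, 1 rose in each comparison and 2, 2 and 4 fell, among them C1qtnf3 by 2.41, 2.99 and 4.19 and C1qtnf6 by 1.15, 1.57 and 2.20. C1qtnf3 was low and scattered, from 0.15 to 11.5 CPM in Ctrl_RT and from 0.105 to 1.56 in Ctrl_CE. Of 15 other adipokines, 3 rose and 4 fell in Ctrl_CE, 1 rose and 6 fell in MetR_RT and 3 rose and 6 fell in MetR_CE. Ccl2, a chemokine that draws monocytes, fell by 3.44, 3.63 and 4.26. Its Ctrl_RT libraries were very scattered, from 3.46 to 129 CPM, and overlapped the Ctrl_CE libraries at 0.943 to 5.97. Of 16 retinol genes, 2 rose in each comparison and 3, 2 and 5 fell, and Stra6, the cell surface receptor of RBP4, fell by 2.19 in MetR_RT and 2.53 in MetR_CE. Stra6 was near the limit of detection, with means of 0.565 CPM in Ctrl_RT and 0.128 in MetR_RT.

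In iBAT, where 33.2% of all genes passed in Ctrl_CE, 6.8% in MetR_RT and 33.4% in MetR_CE, the same lists gave 4 higher and 2 lower of 14 leptin pathway genes in Ctrl_CE, none in MetR_RT, and 4 higher and 4 lower in MetR_CE, and 5 higher and 3 lower of 10 adiponectin genes in both cold groups. Serpina12, which encodes vaspin, rose by 2.58 in iBAT Ctrl_CE and 2.14 in MetR_CE, to means of 0.254 and 0.197 CPM, near the limit of detection. Retnla, the resistin-like gene of alternatively activated macrophages, fell there by 1.05 in Ctrl_CE and by 1.26 in MetR_CE. In eWAT, 1 of 14 leptin pathway genes fell in Ctrl_CE and 0 passed in MetR_RT and in MetR_CE, beside 5.27%, 0.148% and 2.7% of all genes.

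Epididymal fat held the most Lep, and no group of it passed against Ctrl_RT. The 4 Ctrl_RT libraries held Lep at 456, 741, 338 and 1028 CPM. Ctrl_CE libraries had 492, 1065 and 2198 (lowest, median and highest), MetR_RT libraries 534, 837 and 1023, and MetR_CE libraries 708, 1722 and 2416. The groups overlapped, with the highest libraries in both cold groups. The difference from Ctrl_RT was 0.83 in Ctrl_CE (adjusted p = 0.23), 0.33 in MetR_RT (adjusted p = 0.821) and 1.36 in MetR_CE (95% interval 0.60 to 2.12, adjusted p = 0.0613), and none passed. The MetR_CE value passed without Ctrl_RT replicate 7, Ctrl_CE replicate 3 or 4, or MetR_CE replicate 1 or 4 (1.14 to 1.68), and with all libraries included it was 1.41 (adjusted p = 0.00656).

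The same mice gave both white depots, and Lep varied together in them. After the values were seen, 21 relations between the members' levels in 2 tissues of the same mouse were computed on log2(CPM + 1) centred within groups, with 100000 within-group permutations, two-sided. Lep in iWAT and eWAT had Pearson's r of 0.86 and Spearman's rho of 0.83 over 23 mice (permutation p of r = 1e-05, the smallest these permutations can give, adjusted p = 2e-04 for r and 0.0013 for rho). Without the 2 mice farthest from the median in iWAT r was 0.80, and within Ctrl_CE, MetR_RT and MetR_CE it was 0.95, 0.73 and 0.79. In 19 of 23 mice both depots lay on the same side of their group means. Across 15419 genes the median r between these depots was 0.15, and 99.7% of the genes were below Lep.

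**Figure D4:**
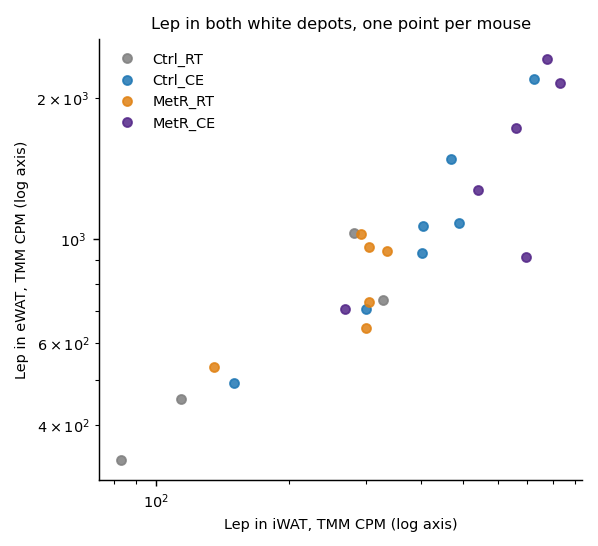
Lep CPM in iWAT (x axis) and eWAT (y axis) of the 23 mice with both libraries, on log axes, with 1 point per mouse in the colour of its group. Mice with more Lep in iWAT had more in eWAT, with r of 0.86 after centring within groups.

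Adipoq fell with cold on the control diet in eWAT, on the libraries the study kept. The 4 Ctrl_RT libraries held 3940, 3241, 2628 and 3459 CPM, and Ctrl_CE libraries 1602, 1853 and 3149. MetR_RT libraries held 2575, 2818 and 3849 CPM and MetR_CE libraries 2494, 3085 and 3680. Most Ctrl_CE libraries were low, and the highest of them lay within the Ctrl_RT range. Ctrl_CE differed from Ctrl_RT by -0.68 (adjusted p = 0.0319), and MetR_CE exceeded Ctrl_CE by 0.57 (adjusted p = 0.0197). The 3 Ctrl_RT libraries that were left out held Adipoq at 1557, 1726 and 1465 CPM and summed adipocyte markers of 20754 to 30057 CPM, against 40053 to 56577 in the 4 that were kept. With all libraries the 2 differences were -0.31 (adjusted p = 0.349) and 0.59 (adjusted p = 0.145), and neither passed. The first was also lost without Ctrl_RT replicate 1, 3 or 7 or Ctrl_CE replicate 1, 2, 3, 6 or 7 (-0.79 to -0.58). Summed adipocyte markers had a median of 49740 CPM in Ctrl_RT against 35337 in Ctrl_CE, 36140 with MetR_RT and 38047 with MetR_CE, and their part in the Adipoq result was not tested.

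Retn in eWAT was at 983, 1257, 991 and 1237 CPM in the 4 Ctrl_RT libraries. It was at 1068, 1563 and 1986 in Ctrl_CE, 859, 1423 and 1854 in MetR_RT and at 856, 1143 and 1333 in MetR_CE, with overlap throughout. Ctrl_CE differed from Ctrl_RT by 0.48 (adjusted p = 0.15), or 0.70 with all libraries (adjusted p = 0.0307), and MetR_CE was lower than Ctrl_CE by 0.49 (adjusted p = 0.048). The last call was lost without any 1 of 13 of the 24 libraries (-0.56 to -0.43) and with all libraries (-0.47, adjusted p = 0.22). Lepr, Adipor1, Adipor2 and Rbp4 did not pass in eWAT, with Ctrl_RT libraries at 3.44, 6.73, 4.74 and 3.14 CPM for Lepr and at 209, 198, 183 and 244.2 CPM for Adipor1. In all, 1 of 7 members passed in Ctrl_CE against Ctrl_RT beside 5.27% of all genes and 2 of 7 in MetR_CE against Ctrl_CE beside 11.5%. In edgeR 0 passed in MetR_RT against Ctrl_RT, beside 0.148% of all genes, with 0 at an unadjusted p under 0.05 and 0 in DESeq2. In MetR_CE against Ctrl_RT 0 passed, beside 2.7%, with 1 at an unadjusted p under 0.05 and 1 in DESeq2, both Lep. In MetR_CE against MetR_RT 0 passed, beside 0.223%, with 3 at an unadjusted p under 0.05 and 1 in DESeq2.

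**Figure D5:**
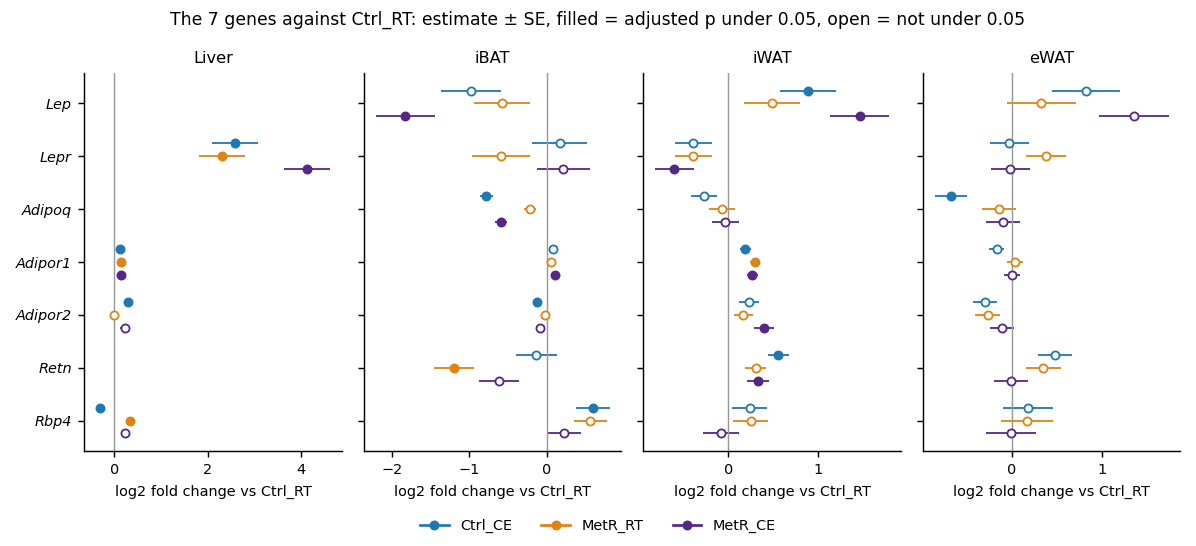
Log2 difference from Ctrl_RT ± SE of each gene in Ctrl_CE, MetR_RT and MetR_CE, with 1 panel per tissue, axes that differ between panels, and filled points where the adjusted p was below 0.05. Lepr reaches 4.13 in MetR_CE liver, Lep lies at -1.83 in MetR_CE iBAT and at 1.47 in MetR_CE iWAT, and Lep, Adipoq and Retn are not shown for liver.

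The tissues differed from each other in these changes, which was tested as a term of the paired fits. The MetR_CE change of Lep was 3.10 larger in iWAT than in iBAT (adjusted p = 5.24e-06) and 2.39 larger in eWAT than in iBAT (adjusted p = 2.38e-04), and the cold change was 1.67 larger in iWAT than in iBAT (adjusted p = 0.00442), a call lost in limma voom (1.65, adjusted p = 0.0844). Of all genes, 20.1% and 9.3% differed in the first 2 of these comparisons and 17.9% in the last. The MetR_RT change of Retn was 1.57 larger in iWAT than in iBAT (adjusted p = 1.28e-04), beside 9.23% of all genes. The Lepr change in MetR_CE was smaller in iWAT than in liver by 4.83 (adjusted p = 2.23e-08) and smaller in eWAT than in liver by 4.71 (adjusted p = 1.81e-06), beside 21.3% and 8.5% of all genes. The Adipoq changes were less negative in iWAT than in iBAT, by 0.43 for Ctrl_CE (adjusted p = 0.0253) and 0.51 for MetR_CE (adjusted p = 0.00639).

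Counted by pair, 2 of 4 members tested differed between eWAT and liver in their Ctrl_CE change (10.3% of all genes). It was 1 of 4 in MetR_RT (2.32%) and 1 of 4 in MetR_CE (8.5%). Between iBAT and liver the counts were 2 of 3 (20.5% of all genes), 0 of 3 (7.35%) and 1 of 3 (19.8%). Those between iWAT and liver were 2 of 4 (20.1%), 1 of 4 (12.5%) and 1 of 4 (21.3%). Between eWAT and iBAT they were 0 of 6 (7.11%), 0 of 6 (0.174%) and 1 of 6 (9.3%). Those between iWAT and iBAT were 3 of 6 (17.9%), 1 of 6 (9.23%) and 4 of 6 (20.1%). Between eWAT and iWAT they were 1 of 7 (5.01%), 0 of 7 (3.58%) and 2 of 7 (16%). Of the 4 counts of 0 in edgeR, limma voom also gave 0, and at an unadjusted p under 0.05 there were 0 members between iBAT and liver, 3 and 1 between eWAT and iBAT and 3 between eWAT and iWAT.

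The interaction of diet and cold passed for 0 of the members in each tissue by edgeR, beside 1.76% of all liver genes, 0.903% for iBAT, 2.95% for iWAT and 3.07% for eWAT. At an unadjusted p under 0.05 there was 1 in liver (Adipor1), 2 in iBAT (Adipoq and Rbp4), 3 in iWAT (Adipor1, Retn and Rbp4) and 3 in eWAT (Adipoq, Adipor2 and Retn), and DESeq2 called 0, 1, 2 and 2. The Retn interaction was -0.83 in eWAT (adjusted p = 0.0677), and the Adipoq interaction was 0.71 (adjusted p = 0.115).

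Genes whose log2 CPM followed a member most closely across libraries were listed for the tissue with that member's highest mean CPM in Ctrl_RT, scaled within each tissue, as a description of libraries that share depth and tissue composition. Over 24 eWAT libraries Lep was followed by Ifngr2, a subunit of the interferon gamma receptor, with Pearson's r of 0.940, also 0.940 within groups, and by Gmfb with 0.917. Retn was followed by Tlcd1 with 0.959, Cisd3 with 0.958 and Acss2, an acetyl-CoA synthetase, with 0.955. Adipoq was followed by Eif4a2 and Ces1d, a lipid droplet lipase of adipocytes, both with 0.909, Adipor1 by Setd3 with 0.919, Adipor2 by Hibch with 0.842 and Lepr by Clca3a1 with 0.775. Over 28 livers Rbp4 was followed by Acox2, a peroxisomal oxidase, with 0.906 and 0.700 within groups. Liver Lepr, added to this list after its values were seen, was followed by Sf3b1 with 0.924 and 0.691 within groups and by Por, which passes electrons to cytochrome P450 enzymes, with 0.922 and 0.721.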

How the data were processed

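RNA-seq libraries of liver, iBAT, iWAT and eWAT were analysed from the whole-number counts per gene that the authors deposited, without normalization, in 3 tables with 110 library columns, of which 0 were mapped to no sample. The submitters' processing notes name STAR 2.7.9a, featureCounts 2.0.3, Salmon 1.9.0, MultiQC 1.19 and DESeq2 1.46.0. The study's text names featureCounts and Salmon, and the names of the deposited tables point to Salmon, which their whole numbers do not settle. The 5 libraries that the study left out were identified by matching its mean normalized counts to every subset that leaves out as many libraries, and 105 were kept. Gene IDs were paired with symbols without their version (51948 of 56884).

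Genes with at least 10 counts in a tissue were tested in edgeR 4.0.16 (R 4.3.3) with TMM factors, a model of 4 group means and the quasi-likelihood F test, adjusted by the Benjamini-Hochberg method over all genes. SE was the log2 difference over the square root of F. The 6 contrasts per tissue were each group against Ctrl_RT, MetR_CE against MetR_RT and Ctrl_CE, and the interaction, in which all comparisons with Ctrl_RT share its libraries. The 6 tissue pairs were fitted with the mouse as a block. Lep, Adipoq and Retn in liver and Lepr in iBAT, with few counts, were not compared between tissues. Differences were two-sided. Mice were the replicates. Alternatives used DESeq2 1.42.0, limma 3.58.1, RLE factors, other filters, other sets of libraries, and CPM without TMM factors. The scripts were tested on simulated data.

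The members and all gene lists were chosen with earlier results of these data known. Named genes were the 7 members, up to 4 genes per list that passed with an absolute log2 difference of 1 or more, and the genes most correlated with a member among those with a mean of at least 1 CPM. Promoters are from RefSeq (GRCm38.p6, 10 windows for the 7 members).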

Additional observations from a re-analysis of the deposited data

Results flagged for a closer look

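Of 99 groups of a gene, tissue and condition that held 4 to 10 libraries, 6 had 1 library far from the others by Dixon's criterion, and chance marks about 1 in 20 groups. In liver, Adipor2 of Ctrl_CE replicate 4 was at 543 CPM with the nearest library at 748. In iBAT, Adipoq of Ctrl_RT replicate 2 was at 659 CPM with the nearest at 556, Adipor1 of Ctrl_RT replicate 3 at 198 with the nearest at 188, Adipor1 of MetR_RT replicate 7 at 210.1 with the nearest at 198, and Lep of Ctrl_CE replicate 3 at 16 with the nearest at 6.75. In iWAT, Adipoq of Ctrl_CE replicate 4 was at 2097 CPM with the nearest at 1455.

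Of 90 tests of whether a change against Ctrl_RT differed between 2 tissues, 23 passed at an adjusted p below 0.05. The share of all genes that passed ran from 0.174% (eWAT and iBAT, MetR_RT) to 21.3% (iWAT and liver, MetR_CE), so the pooled count has no single share beside it. Lepr changed less in eWAT than in liver, with differences of -2.75 for Ctrl_CE, -2.26 for MetR_RT and -4.71 for MetR_CE on the log2 scale, and less in iWAT than in liver, with -2.66, -2.67 and -4.83. Adipor2 gave -0.65 for Ctrl_CE between eWAT and liver, and -0.49 for Ctrl_CE and -0.38 for MetR_CE between iBAT and liver. Rbp4 gave 0.87 for Ctrl_CE between iBAT and liver and 0.48 between iWAT and liver. Lep gave 2.39 for MetR_CE between eWAT and iBAT, and 1.67 for Ctrl_CE and 3.10 for MetR_CE between iWAT and iBAT. Between the last 2 tissues Adipoq gave 0.43 for Ctrl_CE and 0.51 for MetR_CE, Retn gave 0.88 for Ctrl_CE, 1.57 for MetR_RT and 1.07 for MetR_CE, and Adipor2 gave 0.52 for MetR_CE. Between eWAT and iWAT, Adipor1 gave -0.40 for Ctrl_CE and -0.36 for MetR_CE, and Adipor2 gave -0.56 for MetR_CE.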

How the results depend on the processing

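Values below are numbers of members that passed, with the reported number after "from", and the cause of each move was not tested unless it is the setting itself. All counts stayed within 1.5 times of the reported ones with RLE factors. A fit of only the 2 groups gave 2 from 4 in liver Ctrl_CE, 4 from 2 in liver MetR_CE, 2 from 1 in liver MetR_CE against MetR_RT, 1 from 3 in iBAT Ctrl_CE, 1 from 0 in iWAT MetR_CE against MetR_RT and 0 from 1 in eWAT Ctrl_CE. Asking for a 1.5-fold change as well gave 1 from 4, 1 from 3, 1 from 2 and 1 from 2 in liver Ctrl_CE, MetR_RT, MetR_CE and MetR_CE against Ctrl_CE, 1 from 2 in iBAT MetR_CE against MetR_RT, 1 from 3, 0 from 1 and 2 from 5 in iWAT Ctrl_CE, MetR_RT and MetR_CE, and 0 from 2 in eWAT MetR_CE against Ctrl_CE. filterByExpr gave 5 from 3 in iBAT Ctrl_CE, 2 from 1 in iWAT MetR_RT and 1 from 0 in iWAT interaction, eWAT MetR_CE and eWAT interaction. Without a filter, eWAT Ctrl_CE gave 0 from 1 and eWAT MetR_CE against Ctrl_CE 1 from 2. DESeq2 gave 1 from 0 in iBAT interaction, 2 from 1 in iWAT MetR_RT, 1 from 0 in iWAT MetR_CE against MetR_RT, 2 from 0 in iWAT and eWAT interaction, 2 from 1 in eWAT Ctrl_CE and 1 from 0 in eWAT MetR_CE against Ctrl_RT and against MetR_RT. With all libraries, iBAT interaction and eWAT MetR_CE gave 1 from 0 and eWAT MetR_CE against Ctrl_CE 0 from 2. By the treatment tag, iBAT Ctrl_CE gave 1 from 3 and MetR_CE against MetR_RT 1 from 2, and without those 3 libraries iBAT Ctrl_CE gave 1.

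In the tissue pairs, all libraries gave 1 for the eWAT and liver level, 1 for eWAT and liver Ctrl_CE, 1 for eWAT and iBAT Ctrl_CE, 2 for eWAT and iBAT MetR_CE, 2 for iWAT and iBAT MetR_RT, 2 for the eWAT and iWAT level, and 0 for eWAT and iWAT Ctrl_CE and MetR_CE. limma voom gave 0 for eWAT and liver MetR_RT, 1 for iWAT and liver Ctrl_CE, 2 for iWAT and iBAT MetR_RT and 2 for eWAT and iWAT Ctrl_CE. Without the mouse block the counts were 0 for iBAT and liver MetR_CE, 1 for iWAT and liver Ctrl_CE, 1 for eWAT and iBAT Ctrl_CE, 1 for eWAT and iBAT MetR_RT and 2 for iWAT and iBAT MetR_RT.

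The replicate numbers name different mice in the 4 groups. Deviations of same-numbered libraries had a mean correlation of -0.012 (liver), -0.011 (iBAT), 0.052 (iWAT) and 0.111 (eWAT), and 2 of 28, 5 of 26, 3 of 27 and 5 of 24 libraries correlated best with their own number. With the replicate number as a block, 1 from 3 passed in iBAT Ctrl_CE, and 1 from 0 in iWAT MetR_CE against MetR_RT, eWAT MetR_CE and eWAT interaction.

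With each library left out in turn, the counts ran from 4 to 4, 3 to 3, 2 to 4, 1 to 2, 2 to 2 and 0 to 0 in liver (Ctrl_CE, MetR_RT and MetR_CE against Ctrl_RT, MetR_CE against MetR_RT and Ctrl_CE, interaction). They ran from 1 to 4, 1 to 3, 3 to 4, 2 to 3, 0 to 1 and 0 to 2 in iBAT, from 2 to 4, 1 to 2, 3 to 5, 0 to 1, 0 to 0 and 0 to 1 in iWAT and from 0 to 1, 0 to 0, 0 to 1, 0 to 0, 1 to 2 and 0 to 1 in eWAT. The iBAT Ctrl_CE count was lowest without Ctrl_RT replicate 4 or Ctrl_CE replicate 6, and the liver MetR_CE count highest without Ctrl_CE replicate 4.

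Fold changes without TMM factors, added after the data were seen, changed sign for Adipor1 in iWAT Ctrl_CE (-0.05), Adipor1 between eWAT and iBAT (0.11) and Adipor2 between eWAT and iBAT (0.22), and of 105 values 49 moved and 53 did not.

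Counting error limits Lep, Adipoq and Retn in liver and Lepr in iBAT. Only 4 Ctrl_RT libraries support eWAT.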

Other observations

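Among the 21 relations between tissues of the same mouse, chosen after the values were seen, Lep in iBAT gave r of 0.43 with iWAT (permutation, adjusted p = 0.11) and 0.45 with eWAT (adjusted p = 0.083). Adipoq in iWAT and eWAT gave 0.60 (rho 0.66, permutation, adjusted p = 0.027 and 0.016), and Retn gave 0.15 between the same depots and 0.58 between iBAT and iWAT (adjusted p = 0.022 for r and 0.074 for rho), or 0.42 without 2 mice for the latter. Rbp4 gave 0.70, 0.65 and 0.60 for the 3 pairs of depots (adjusted p = 0.022, 0.024 and 0.026 for r, 0.16, 0.074 and 0.16 for rho), and 0.38, 0.47 and 0.43 without 2 mice. Liver Lepr gave -0.30 with Lep in iWAT (permutation, adjusted p = 0.24) and -0.49 with Lep in eWAT (adjusted p = 0.065), or -0.30 without 2 mice. Adipor2 in iBAT and eWAT gave 0.58 (adjusted p = 0.026 for r and 0.028 for rho). In all, 7 of the 21 relations had an adjusted p of r below 0.05.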
